A study of Triticum aestivum with 8 samples.

Results

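In embryos of imbibed wheat grains, 101 array probes, most of them bright in dry seed, were at least 32-fold lower after 16 h of imbibition and then changed by less than 2-fold up to 24 h. They were chosen from 43603 probes on the measured values themselves. A probe entered the set if its signal was well above background on all 8 arrays, if its mean log2 level was at least 5 lower at 16 h than in dry seed, and if its 24 h and 16 h means lay within 1 of each other on that scale. Levels are log2 signal minus the 75th percentile of the same array, so 0 marks the signal that 75% of wheat spots lie below, and every value is relative to the other transcripts of that array. Signal was well above background throughout for 23844 probes, and 349 of these met the condition on the fall. The 24 h mean was lower than the 16 h mean by 1 or more for 231 of them and higher by 1 or more for 16, the 101 members lay between, and 1 further probe, TAHSP173, is left out by name.

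The embryos came from grains of the bread wheat cultivar Norin61. Dry seed (0 h, 2 arrays) was taken before imbibition, and the 16 h (3 arrays) and 24 h (3 arrays) groups were held on moist cotton in darkness at 25 °C. Selection was by radicle length, at least 3 mm for the 16 h grains and at least 7 mm for the 24 h grains, so the imbibed groups hold germinating grains only. Each array carries the RNA of 1 pool of 7 embryos, amplified from 200 ng and labelled with Cy3. The 21 seeds of a stage were divided into 3 pools, of which 2 were analysed here for dry seed, and the labels do not state that a stage's pools were grown apart. The titles, source names and design text give 16 h and 24 h, and these were followed. The description fields give 8 h for the group called 16 h here and 16 h for the group called 24 h here, so the hours of both imbibed stages rest on the titles. The files hold no description of any probe, so neither the embryo label nor a gene family could be checked against marker genes.

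As background, a maturing cereal embryo stores messenger RNA before it dries. Stored messages are known to include those for late embryogenesis abundant proteins, which protect cells during drying, for chaperones, and for proteins of reserves and oil bodies, many of them induced by abscisic acid. When the grain takes up water, part of this store is degraded or translated, and newly made messages for growth replace it. Which of these functions the 101 probes serve is not given in the sources used here. None of their 94 sequence names, and none of the 40253 names on the array, matched the RefSeq gene table of the Chinese Spring assembly. Probes are therefore named by their identifier and sequence name. Since whole embryos were pooled, fewer cells of a type and less RNA per cell cannot be told apart.

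In dry seed most members were abundant. Their mean levels ran from -1.35 to 8.63 with a median of 3.01, and 93 of the 101 lay above the array's 75th percentile. The median member had a percentile rank among all wheat probes of 93.5 on dry-seed replicate 1 and of 93.4 on replicate 2. The rule favours such levels. A member had to be well above background on the imbibed arrays and at least 5 higher in dry seed than at 16 h. These values are therefore a description. The label "abundant" did not hold for the other 8, which lay between -1.35 and -0.07. The lowest of these was A_99_P398802 (sequence name TA110144_4565), at -1.35 and -1.36 in dry seed.

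At 16 h the members ran from -6.36 to 3.60 with a median of -2.73, and at 24 h from -6.63 to 2.95 with a median of -2.95. The median percentile rank of the members was 53.3 to 54.9 on the 16 h arrays and 49.7 to 52.4 on the 24 h arrays. Of the 101, 16 were still above the 75th percentile at 16 h and 10 at 24 h. For every member both dry-seed values lay above all 6 imbibed values, with a gap of 3.53 or more between the lower dry-seed and the highest imbibed array. The median gap was 5.21. This separation follows largely from how the members were chosen, and its share over all probes was not counted. Array by array, the members' median stood at 3.04 and 2.99 in dry seed, at -2.72, -2.58 and -2.62 in the 16 h pools and at -2.77, -3.20 and -2.77 in the 24 h pools.

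The fall by 16 h was 48.8-fold for the median member (log2 change -5.61), with a range of 32.2-fold to 248-fold. What was left at 16 h was therefore 0.403% to 3.11% of the relative dry-seed level. By size, 40 members fell by 5 to 5.5 on the log2 scale, 34 by 5.5 to 6, 19 by 6 to 7 and 8 by 7 or more. The limma fit over 30833 tested probes called all 101 lower at 16 h than in dry seed (adjusted p below 0.05 and at least 2-fold), against 26.4% of the tested probes. It also called all 101 lower at 24 h than in dry seed, against 27.0%. Both counts follow from how the members were chosen and are given as a description. The median change over all tested probes was -0.06 at 16 h and 0.04 at 24 h.

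The steepest fall was that of A_99_P014484 (BQ841624). It stood at 5.87 and 6.05 in dry seed, at -1.82, -1.94 and -2.23 at 16 h, and at -1.84, -1.97 and -1.89 at 24 h. The fall was 248-fold by 16 h, and the 16 h and 24 h arrays overlapped. A_99_P580477 (CK161662) fell 225-fold, and its replicates differed more at 16 h. Its levels were 6.02 and 6.18 in dry seed, -2.19, -1.07 and -1.88 in the 16 h pools, and -2.24, -2.80 and -2.59 in the 24 h pools, so that all 24 h values lay below all 16 h values. A_99_P308071 (TA84076_4565) began lower, at 3.41 and 3.49 in dry seed, and stood at -4.47, -4.25 and -4.23 at 16 h and at -4.80, -5.38 and -4.88 at 24 h. That is a 217-fold fall by 16 h, again with all 24 h arrays below the 16 h arrays.

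The next 7 by size fell 114-fold to 178-fold by 16 h. They split by dry-seed level into a bright and a moderate group. AF058794, BT009049 and TA60059_4565 (probes A_99_P000281, A_99_P133875 and A_99_P225261) averaged 6.55 ± 0.09, 6.74 ± 0.02 and 6.33 ± 0.02 in dry seed (SD, n = 2), and -0.59 ± 0.20, -0.31 ± 0.37 and -0.71 ± 0.16 at 16 h (SD, n = 3). At 24 h they averaged -1.16 ± 0.12, -1.08 ± 0.70 and -1.11 ± 0.50 (SD, n = 3). These 3 were thus among the brighter probes in dry seed and just under the 75th percentile in imbibed embryos. The other 4 (A_99_P495412, A_99_P116020, A_99_P473987 and A_99_P308066) had dry-seed means between 2.07 and 3.01 and 16 h means between -4.87 and -4.27.

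The members with the highest dry-seed level were not the steepest fallers. A_99_P473032 (TA59132_4565) was the brightest, at 8.74 and 8.52 in dry seed, at 2.95, 4.08 and 3.78 at 16 h, and at 3.90, 1.68 and 3.26 at 24 h. After a 32.6-fold fall it was still above the 75th percentile on every imbibed array. A_99_P009886 (TA72052_4565) stood at 7.87 and 7.75 in dry seed, at 1.77, 1.32 and 1.27 at 16 h, and at 0.72, 1.10 and 0.80 at 24 h. It fell 81.9-fold by 16 h and also remained above 0 on all imbibed arrays, with the 24 h values below the 16 h values. A_99_P226786 (TA60558_4565) had 7.36 and 7.58 in dry seed, 1.21, 1.77 and 1.62 in the 16 h pools, and 1.52, 1.19 and 1.10 in the 24 h pools, a 61.4-fold fall by 16 h, with overlapping 16 h and 24 h arrays.

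Together the members held 2.29% of the summed wheat signal on each dry-seed array. They held 0.0547%, 0.0722% and 0.0644% on the 16 h arrays and 0.0510%, 0.0318% and 0.0424% on the 24 h arrays. The 3 brightest members of an array made up 21.7% to 41.8% of the set's summed signal over the 8 arrays. The share was thus nearly equal between the dry-seed arrays, while at 24 h it was lowest on replicate 2. These shares restate the values that chose the members.

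Several probes of the array carry the same sequence name, and these show how far separate probes for 1 sequence gave the same course. The 94 names of the members include 6 that 2 or more members share, over 13 members. For AK332502, probe A_99_P529722 had 7.69 and 7.61 in dry seed, 1.55, 1.07 and 0.94 in the 16 h pools, and 0.50, 0.84 and 0.58 in the 24 h pools. Probe A_99_P267156 of the same name had 7.48 and 7.40 in dry seed, 1.32, 0.87 and 0.82 in the 16 h pools, and 0.27, 0.64 and 0.43 in the 24 h pools. The second probe lay below the first on each array, with the same order of replicates within each stage, and the falls were 88.2-fold and 86.8-fold.

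The 3 CK162288 probes fell 60.3-fold, 47.8-fold and 47.4-fold from dry-seed means of 6.40, 5.44 and 5.33. The 2 BT009049 members fell 133-fold and 114-fold, and the 2 U07933 members 38.0-fold and 35.9-fold. The 2 TA85408_4565 probes fell 36.3-fold and 34.5-fold, and both were higher at 24 h than at 16 h, by 0.39 and 0.47 (log2). The 2 TA59132_4565 members fell 38.3-fold and 32.6-fold. Within a name, the members differed by no more than 1.27-fold in the size of the fall, among probes that had all been chosen for a steep fall.

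Another 13 probes, over 10 names, carry a member's name without being members. Of these, 10 were well above background on all 8 arrays, and all 10 had a lower mean at 16 h than in dry seed. In 4 of the 10 the fall was at least 5 (log2). For 3 of these 4 the 24 h mean lay 1 or more below the 16 h mean: A_99_P560637 (CJ648402), A_99_P511787 (TA60059_4565) and A_99_P000211 (U07933). These 3 changed from 16 to 24 h by -1.97, -1.46 and -1.59 (log2), whereas the members of those names changed by 0.01 for CJ648402, -0.39 for TA60059_4565, and -0.98 and -0.77 for U07933. The fourth, A_99_P194968 (BT009049), was 1.03 higher at 24 h than at 16 h, where both members of that name were lower by 0.77 and 0.64, and it was far dimmer in dry seed, at 0.81 and 0.97. Other probes of a member's name fell far less. The CK161662 probe A_99_P647886 had a log2 change of -1.55 at 16 h, against -7.81 for the member A_99_P580477. The L27516 probe A_99_P167734 had -1.66, against -5.96 for the member A_99_P584562, and the AK333773 probes A_99_P423877 and A_99_P438137 had -2.501 and -2.08, against -5.67 for the member A_99_P559987. In dry seed A_99_P647886 stood at -3.118 and -3.903, A_99_P438137 at -2.75 and -2.565, and A_99_P167734 at -1.363 and -1.328. Probes this dim have little room for a fall of 5 above background, and whether their smaller falls went with the low level was not tested. A_99_P423877 was brighter, at 1.776 and 2.235. Probes of 1 name therefore did not always share the flat course, and A_99_P423877 did not share the steep fall.

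Some names were consecutive as well. Of the 53 members named TA and a number, 15 formed 7 runs in which neighbours had the same number or lay within 5 of each other. The runs of TA59132_4565 and TA85408_4565 hold only a repeated name, already counted above. How often other TA-named probes form such runs was not counted. TA71032_4565, TA71033_4565 and TA71034_4565 (A_99_P263666, A_99_P263671 and A_99_P436797) had log2 changes of -5.55, -5.44 and -5.64 at 16 h, and all 3 were lower at 24 h than at 16 h, by 0.57 to 0.74. TA74658_4565 and TA74659_4565 had log2 changes of -5.76 and -5.79 and were higher at 24 h, by 0.16 and 0.24. TA70734_4565 and TA70736_4565 had log2 changes of -5.90 and -5.31 from very different dry-seed levels, 0.31 and 5.20. TA85184_4565 and TA85185_4565 differed more in the fall, with log2 changes of -6.08 and -5.08. For TA60553_4565 and TA60558_4565 the log2 changes were -6.10 and -5.94. The files do not say how these numbers were given.

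After 16 h the set was flat by choice, yet not evenly so. The 24 h mean was below the 16 h mean for 79 members and above it for 22, with a median difference of -0.55 (log2). Over all 23844 probes well above background on all arrays the median was -0.07. For 56 members the 24 h mean was lower by more than 0.5, and for 17 it was within 0.25 of the 16 h mean. With the 2-fold minimum, none was called in the limma fit of 24 h against 16 h, against 18.4% of tested probes, as the rule requires. At an adjusted p below 0.05 with no fold minimum, the same fit called 38 members lower and 5 higher, against 25.3% and 26.6% of tested probes. Every 24 h array lay below every 16 h array for 42 members, against 31.5% of tested probes, and above for 5, against 31.4%. The rule used this contrast, so these counts are a description.

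Set against all steep fallers, the members were the flat ones by choice. Over the 349 probes with a fall of at least 5, the median 24 h minus 16 h difference was -1.52. Of these, 120 lay between -2 and -1.5, 54 between -1.5 and -1, 57 between -1 and -0.5, and 23 between -0.5 and 0. Most of the steep fallers were thus lower again at 24 h, and the members are those that moved by less than 2-fold in either direction.

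Nearest the lower limit was A_99_P525587, which has no other sequence name. It stood at 5.02 and 5.01 in dry seed, at -1.13, -0.74 and -0.59 at 16 h, and at -1.24, -2.42 and -1.80 at 24 h, a difference of -0.996. Just outside, A_99_P468892 (TA65674_4565) lay past the limit by less than 0.01, and DR737994 (A_99_P167449) changed by -1.02. Nearest the upper limit was A_99_P369312 (TA102924_4565), at 0.81 and 0.86 in dry seed, at -4.21, -5.14 and -4.55 at 16 h, and at -3.92, -3.62 and -3.64 at 24 h. All its 24 h arrays were above its 16 h arrays, with a difference of 0.91. AK335637 (A_99_P495247) followed with 0.85, and just outside were TA100193_4565 (A_99_P360586) with 1.01 and the BT009049 probe A_99_P194968.

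At the limit on the fall, A_99_P486142 (CD932528), A_99_P423527 (TC383597) and A_99_P398802 (TA110144_4565) were inside with log2 changes of -5.02, -5.02 and -5.01. Outside were A_99_P429222 (BJ290813), A_99_P013944 (CJ700126) and A_99_P117145 (CV762525), with -4.99, -4.96 and -4.94. The 6 changes span less than the 16 h replicate SD of TA110144_4565, BJ290813, CJ700126 or CV762525 (0.32, 0.54, 0.17 and 0.41, n = 3 each), so the limit separates probes that do not differ beyond their replicate spread. BJ290813 had a dry-seed mean of 8.91, above that of any member.

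Members whose 24 h mean was above the 16 h mean were somewhat dimmer in dry seed, with a median of 2.76 against 3.45 for those below it. Among the 41 members with a dry-seed level above 4, 34 were lower at 24 h and 7 were higher. Over the whole set 79 were lower and 22 higher. The rule used this contrast, and whether the direction went with the dry-seed level was not tested. The 7 higher members with a dry-seed level above 4 include both TA85408_4565 probes. Probe A_99_P312641 of that name stood at 5.02 and 4.74 in dry seed, at -0.39, -0.01 and -0.29 at 16 h, and at 0.34, -0.13 and 0.49 at 24 h. Its stages overlapped after imbibition, through 24 h replicate 2.

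Replicates of the imbibed stages differed more for the members than for other probes, whereas the dry-seed arrays did not. The median SD over members was 0.26 at 16 h and 0.25 at 24 h (log2, n = 3 each), against 0.16 and 0.13 over all probes well above background on all arrays. Between the dry-seed arrays the median absolute difference was 0.13 for the members and 0.14 over all those probes. These comparisons were not matched for signal level. The members' median percentile rank was 93.4 to 93.5 in dry seed and 49.7 to 54.9 on the imbibed arrays. Whether the spread went with the level was not tested. For 80 members the dry-seed arrays lay within 0.25 of each other. The widest gap was that of A_99_P610928 (M11075), at -1.79 on dry-seed replicate 1 and -0.07 on replicate 2, while the second-largest difference of a member was 0.54. It was singled out after its values were seen. The 3 other M11075 probes, which were above background on 2 or 3 arrays only, were also higher on dry-seed replicate 2, at -0.91 against -2.68, -1.85 against -4.02 and -0.86 against -2.57 (replicate 2 against replicate 1).

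The differences between imbibed replicates had a direction. The members' median deviation from the stage mean was -0.17 on 24 h replicate 2, 0.13 on 24 h replicate 1 and 0.05 on 24 h replicate 3. It was -0.19 on 16 h replicate 1, and 0.07 and 0.09 on 16 h replicates 2 and 3. Over all probes well above background on all arrays, the corresponding medians lay between -0.02 and 0.01. On 24 h replicate 2, 24 members (23.8%) lay 0.5 or more below both other 24 h arrays, against 4.66% of all those probes. On 16 h replicate 1 it was 17 members (16.8%), against 4.80%, and on 24 h replicate 1, 13 members (12.9%) lay 0.5 or more above both others, against 1.06%. Of the 5 members furthest below on 24 h replicate 2, 3 had dry-seed levels above 4.

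The 5 members that lay 1 or more below both other arrays on 24 h replicate 2 were the 2 TA59132_4565 probes, A_99_P532197 (BQ483101), A_99_P366301 (TA102146_4565) and A_99_P264486 (BT009049). They are 4.95% of the members, against 0.994% of all probes well above background on all arrays. For all 5, 16 h replicate 1 was the lowest 16 h array, as it was for 67 of the 101 members. How often it was the lowest over all probes was not counted. Among the 5, TA59132_4565 probe A_99_P222381 had 7.89 and 7.59 in dry seed, 1.87, 3.04 and 2.53 in the 16 h pools, and 2.87, 0.38 and 2.02 in the 24 h pools. Its 16 h and 24 h arrays overlapped, and its 24 h range was 2.49. The non-member probe of that name, A_99_P406202, and the near-member BJ290813 were lowest on the same 2 imbibed arrays.

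Other members went the opposite way at 16 h. A_99_P132255 (CJ700132) had the widest range of all members, with 1.85 and 1.77 in dry seed, -2.73, -5.07 and -5.28 in the 16 h pools, and -4.998, -5.84 and -5.05 in the 24 h pools. Its 16 h replicate 1 stood 2.34 above the next 16 h array, and its 24 h replicate 2 lay 0.791 below both other 24 h arrays. TA65671_4565 (A_99_P244706) and TC414061 (A_99_P549557) were also 1 or more above both others on 16 h replicate 1, by 1.21 and 1.20. In all, 3 members (2.97%) were so placed, against 1.07% of all probes well above background on all arrays. By 0.5 or more it was 9 members (8.91%), against 5.75%.

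The 8 arrays lay on 2 slides, each with 1 scan, and every stage was on both slides. Within slide 1 the members' median log2 change from dry seed to 16 h was -5.65, and within slide 2 it was -5.57. The limit of 5 was met by 95 members on slide 1 and by 90 on slide 2. Over probes well above background on all arrays it was met by 1.49% and 1.40%. The members were chosen on the means of these same arrays, so their counts are a description. From 16 to 24 h the members' median was -0.28 on slide 1, with 66 of 101 lower, and -0.58 on slide 2, with 83 lower. Over all probes well above background on all arrays these medians were -0.05 and -0.08. Slide 2 holds 24 h replicates 2 and 3, and without 24 h replicate 2 the members' median over both slides was -0.37, with 75 of 101 lower.

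Choosing probes on 1 slide and reading them on the arrays of the other slide gives values that did not enter the choice. Both slides hold pools of the same stages, so this is no separate experiment. The picked probes had to be above background on the picking slide's arrays only. The shares given beside them are over probes above background on all 8 arrays, so the sets are not alike. On slide 1 alone the rule found 150 probes, and on slide 2 all 150 had a lower level at 16 h, with a median log2 change of -5.67. A fall of at least 5 was met there by 127 of the 150, against 1.40% of the probes with signal well above background on all 8 arrays. Of the 150, 74 lay within 1 between 24 h and 16 h, against 82.3% of all those probes, and the median difference over the 150 was -1.04. On slide 2 alone the rule found 90 probes, of which 89 were lower at 16 h on slide 1 (median -5.66). There 79 met the fall, against 1.49% of all those probes, and 76 were within 1 between 24 h and 16 h (median -0.30), against 85.1%. The exception, A_99_P456742 (TC408289), stood at -7.16 on dry-seed replicate 1 and at -0.26 on replicate 2. It is no member and was singled out after its values were seen. Both conditions were met on the other slide by 66 of the 150 probes and by 66 of the 90. Whether the fall and the flat course recurred at different rates was not tested.

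The size of the change depended on the scale chosen. Spike-ins are control transcripts mixed into each RNA sample at set amounts, and 8 probes for them gave an alternative scale. Relative to them, the members' log2 change at 16 h was -5.07 to -2.12 with a median of -2.73, and at 24 h it was -5.15 to -0.75 with a median of -2.59. What was left at 16 h was 2.97% to 22.9% of the dry-seed level on this scale, with a median of 15.1%. In the limma fit relative to the spike-ins, all 101 members were called lower at 16 h, against 2.75% of tested probes, and 98 were called lower at 24 h, against 2.50%. The median of all tested probes moved to 2.82 at 16 h and 3.54 at 24 h on this scale, and these counts again use the contrast of the rule. The 3 not called lower at 24 h were A_99_P532197 (BQ483101), A_99_P495247 (AK335637) and A_99_P324176 (TA88778_4565), with log2 changes of -0.90, -0.75 and -0.96, below the 2-fold minimum.

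The direction after 16 h also turned with the scale. Relative to the spike-ins the median difference between 24 h and 16 h was 0.06, with 42 members lower and 59 higher at 24 h, since this scale moves every probe by 0.61 between these stages. A slight further fall of most members therefore holds on the scale of the array's 75th percentile, and not on that of the spike-ins.

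Low signal limits part of the set. On the imbibed arrays the dimmest member had a processed signal of 11.0 to 19.7 linear units, where the lowest signal well above background was 9.09 to 16.8. On the dry-seed arrays the dimmest member had 75.6 and 95.8 units, against a lowest such signal of 7.69 and 8.98. In all, 26 members came within 4-fold of the lowest signal well above background on an imbibed array, and 13 came within 2-fold. The 88 members not within 2-fold had a median log2 change of -5.62 at 16 h. Because the rule required signal above background at 24 h too, members near that signal had little room for a further fall. Their flat course after 16 h is limited in the same way. With normexp background correction, which adds an offset of 50 and so lessens the change of dim spots, the members' median was -4.98 at 16 h and -5.44 at 24 h.

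By kind of name, 53 of the 101 members (52.5%) had TA numbers, against 48.8% of the probes well above background on all arrays and 40.4% of all probes. Against all probes, names in the form of a sequence accession made up 36.6% against 46.5%, TC numbers 7.92% against 10.8%, and probes with no name but their own number 2.97% against 2.21%. Each member had a single spot on the array, and none of those spots had an outlier flag.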

How the data were processed

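Single-channel arrays of 8 RNA pools were analysed. Per the file headers, Agilent Feature Extraction 10.7.3.1 made the deposited intensity values, and the processed signals used here differ in their 75th percentile between arrays, so they are not scaled between arrays. The deposited log2 table of the series had column medians of -0.07 to 0.503, a median of 0 for every probe over the 8 arrays and a slope of 1 on the centred scanner values, so scale and direction are known and the level removed by centring is not. Its columns for 24 h replicates 2 and 3 hold each other's scanner values, so replicate numbers here follow the scanner files, and the table served as an alternative only.

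For the rule, all spots of a probe were averaged after the array's log2 75th percentile over 43803 non-control spots was subtracted. A probe counted as well above background if 50% or more of its spots had that flag. Arrays were fitted with limma 3.58.1 in R 4.3.3 (a mean per stage, all 8 arrays, outlier spots left out, Benjamini-Hochberg adjustment). Tested were 30833 probes with signal well above background in all arrays of 1 stage or more and at least 2 unflagged arrays per stage. Alternatives were other scalings, normexp on median intensities, the deposited table, a slide term, a replicate block, other filters and limits, and leaving out each array. The script was tested on simulated data. The precision is limited by the number of arrays.

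The members, the lists and the rules for which probes to name were chosen with earlier results of these data known. Named were the 10 steepest members, the next 5 by dry-seed level, those nearest each limit on both sides, the 3 with the widest replicate range and those sharing a sequence name. P-values reflect the variation among these pools alone, and it may be technical. Lists of gene families could not be applied without probe descriptions, and no sequences are shown because none were among the files used here. The calls of members on the contrasts that chose them are given as a description.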

Additional observations from a re-analysis of the deposited data

How the results depend on the processing

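The set has 101 members as defined. It held 11 under spike-in scaling (1 of them shared with the 101), 189 without the requirement of signal above background, 225 with a fall of at least 4, 27 with a fall of at least 6, 39 with the 24 h mean within 0.5 of the 16 h mean and 161 within 1.5. Normexp gave 74, of which 48 were among the 101, quantile scaling 78 (76 shared), slide 1 alone 150 (88 shared) and slide 2 alone 90 (74 shared). Leaving out 1 array gave 82 to 113. With the deposited table the same 101 were found. Over all tested probes, 16072 were called between 16 h and dry seed, 17350 between 24 h and dry seed and 5681 between 24 h and 16 h. Spike-in scaling gave 27608, 28765 and 9718 in that order. With no filter on dim probes the first pair of counts was 25552 and 26689. For 24 h against 16 h, normexp gave 3511, probes above background on all 8 arrays 3310, and no fold minimum 16003. Leaving out 1 array gave 16021 to 16240, 17160 to 17587 and 5011 to 6776. Between 16 h and dry seed, 7922 were higher and 8150 lower, against 26761 and 847 under spike-in scaling, 4021 and 12608 with normexp, and 7894 and 17658 with no filter. Between 24 h and dry seed, 9039 were higher and 8311 lower, against 27993 and 772 under spike-in scaling, 4748 and 12591 with normexp and 7807 and 9782 under median scaling. The members' median difference between 24 h and 16 h, -0.55, was 0.0595 under spike-in scaling.

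With the replicate number as a block the counts were 16197, 17443 and 5651. Deviations of same-numbered 24 h and 16 h arrays correlated at 0.119, 0.092 and -0.04, and those of differently numbered arrays at -0.164 to 0.133. These values show no pairing by number. They cannot exclude one, because the deviations are taken from the mean of only 3 arrays per stage. The log2 change at 16 h of the 31 named members ran from -8.13 to -2.12 over 20 alternatives, always called lower, which the choice of members on this contrast largely fixes. The 2 dry-seed arrays and the signal near background of 13 members limit the size of the fall.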
